A study of Mus musculus with 18 samples.

Results

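The 10 genes described here are imprinted genes with a known part in growth, namely *Cdkn1c*, *Grb10*, *Peg3*, *Mest*, *Plagl1*, *Dlk1*, *Meg3*, *Ndn*, *Kcnq1ot1* and *Snrpn*. They were taken by symbol from a table of read counts of 52636 genes, and each symbol matched 1 row. All 10 passed the filter on low counts in each of the 6 comparisons of groups. *Igf2* and *H19* were kept apart as the pair against which the 10 genes were set, because the question was whether the other imprinted growth genes moved with them.

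Imprinted genes are transcribed from only the maternal or the paternal chromosome, and they lie in clusters that share control regions. *Igf2*, a paternally expressed fetal growth factor, and *H19*, a maternally expressed non-coding RNA, share enhancers at one such cluster. The other members lie in several clusters, where paternally expressed genes tend to promote growth before and after birth and maternally expressed genes tend to restrain it, and most of them are turned down as tissues mature after birth.

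RNA-seq was performed on retinal pigment epithelium (RPE) of C57BL/6 mice at postnatal day 14, with 18 libraries in 6 groups of 3, each library from both eyes of 1 mouse. The groups were uninjected mice and mice given a subretinal injection as newborns of an AAV8 vector that carried GFP, nSREBP2 (the nuclear, active form of the sterol-sensing transcription factor SREBP2), ctrl sh (a control hairpin against LacZ), *Lrp2* sh1 or *Lrp2* sh2 (2 hairpins against *Lrp2*, which encodes the endocytic receptor megalin). In all of the vectors expression was driven by the *Best1* promoter, which is active in the RPE, and the hairpin vectors also carried a fluorescent reporter. The cells were freed from the eyecup with papain after the retina and the optic nerve had been removed, so that RNA of neighboring choroid and sclera can be present.

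Between 8921885 and 13696934 reads were counted per library. *Srebf2*, which encodes SREBP2, was at 208 to 233 CPM (counts per 1e+06 counts of a library, scaled with TMM factors) in the nSREBP2 libraries and at 83.5 to 113 CPM in the GFP libraries, and the vector's mouse coding sequence can add to this count. *Lrp2* was at 29.7 to 43.6 CPM in the libraries of both *Lrp2* hairpins and at 87.7 to 166 CPM in the ctrl sh libraries. It was also low with nSREBP2, at 25.15 to 37.7 CPM against 87.9 to 176 CPM in the GFP libraries. The summed level of 10 RPE markers was 2660 to 7848 CPM in the uninjected libraries, 1435 to 3858 CPM in the ctrl sh and *Lrp2* sh1 libraries and 374 to 823 CPM in the GFP, nSREBP2 and *Lrp2* sh2 libraries, and none of the 10 markers was at 0 in any library. *Rpe65*, the retinoid isomerase that defines the RPE, was at 375 to 1129 CPM in the uninjected libraries and at 1.06 to 2.31 CPM in the GFP libraries. Fibroblast markers summed to 17780 to 84090 CPM, more than the RPE markers in every library. In bulk RNA, fewer cells of a type and less RNA per cell cannot be told apart. Y-linked genes had 2770 to 2901 reads in the 3 nSREBP2 libraries and 2 to 4 in the 3 GFP libraries, so sex and vector cannot be told apart within that comparison. A fit over all 18 libraries with sex as a term is therefore given beside the calls of that comparison. Its sex term can be estimated only in the uninjected and *Lrp2* sh2 groups, which hold libraries with many and with few Y-linked reads. The fit carries that sex effect over to nSREBP2 versus GFP, so it cannot separate sex from vector there.

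Per kilobase of exon in the uninjected libraries, *Igf2* was at 70.9 ± 8.94 CPM and *H19* at 54.5 ± 14.9 CPM (mean ± SD, n = 3). Of the members, *Peg3* (31.7), *Cdkn1c* (28.4), *Plagl1* (28.1) and *Grb10* (26.1) were highest on this scale of CPM per kilobase. *Peg3* was above the other 3 in each library, and the ranges of *Cdkn1c*, *Plagl1* and *Grb10* overlapped. *Mest* followed at 18.4 ± 4.13 CPM per kilobase, then *Ndn* at 7.78 ± 0.95 and *Dlk1* at 5.16 ± 0.95. The non-coding RNAs *Meg3* (4.40 ± 1.04) and *Kcnq1ot1* (3.84 ± 0.96) were lower, and *Snrpn* was lowest at 2.53 ± 0.53 CPM per kilobase. *Snrpn* had only 33 to 119 reads in a library, so its values are the least precise of the 10. *Kcnq1ot1* had 1870 to 4503 reads, spread over an annotated exon of 93092 bases.

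Over all 18 libraries, every member differed between groups beyond the spread between mice. The edgeR F test across the 6 groups called 10 of 10 members, against 48.7% of all genes tested, with adjusted *P* from 2.32e-06 (*Mest*) to 0.0232 (*Kcnq1ot1*). The range was wide for some members and narrow for others: the highest library exceeded the lowest 3.53-fold for *Mest*, 3.37-fold for *Dlk1* and 1.55-fold for *Peg3*, against 24.0-fold for *Igf2* and 5.44-fold for *H19*.

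**Figure D1:**
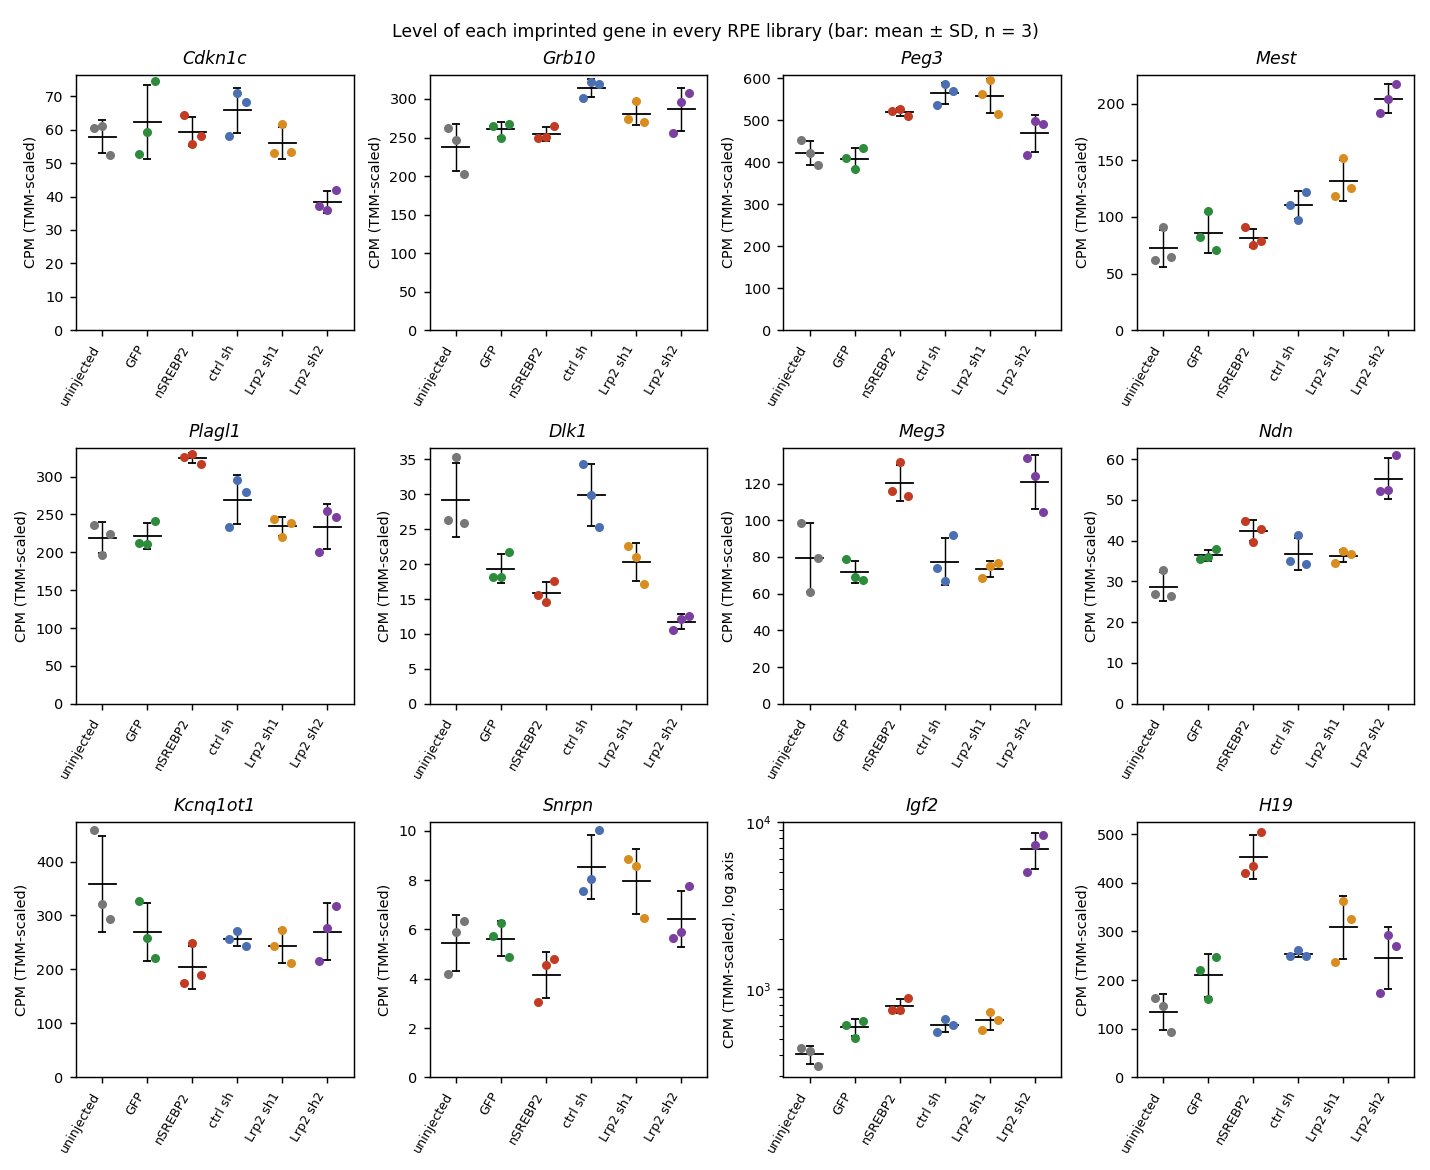
TMM-scaled CPM of the 10 members, *Igf2* and *H19* in each of 18 libraries by group, with dots for libraries and bars for the mean ± SD (n = 3). *Igf2*, on a log axis, stands at 5036 to 8327 CPM in *Lrp2* sh2 and at most at 883 CPM elsewhere, and the highest member libraries, of *Mest*, exceed the lowest 3.53-fold.

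SREBP2 is known to bind sterol regulatory elements and E-boxes, so the RefSeq promoters (GRCm38, 250 bases before to 50 after an annotated start) were searched on both strands for the letters CACGTG (E-box), for the sterol regulatory element of the LDL receptor gene and for the shorter, SRE-like GTGGGG, whose complement lies within the sterol regulatory element. The table held 16 promoters for 9 of the members and none for *Cdkn1c*. The E-box was in 1 of the 16 (7.15% of all 32851 promoters), GTGGGG in 7 of the 16, from 5 genes (28.7% of all promoters), and the sterol regulatory element in none (0.09% of all promoters). The 7 include overlapping *Mest* windows, from chr6:30737800 and from chr6:30737803, that hold the same GTGGGG, so this site is counted more than once. Shown are promoters of 4 genes that passed the test in the comparisons below, with each match in capitals, read along the gene's strand, where CCCCAC is a match on the other strand. *Plagl1* (chr10:13090582-13090881, plus strand) holds the E-box and 1 GTGGGG, and *Meg3* holds 1 GTGGGG at its first start (chr12:109540746-109541045, plus strand) and 7 at an inner start (chr12:109545148-109545447, plus strand). *Dlk1* (chr12:109452573-109452872, plus strand) and the inner *Mest* promoter (chr6:30737800-30738099, plus strand) hold 1 GTGGGG each.
Plagl1: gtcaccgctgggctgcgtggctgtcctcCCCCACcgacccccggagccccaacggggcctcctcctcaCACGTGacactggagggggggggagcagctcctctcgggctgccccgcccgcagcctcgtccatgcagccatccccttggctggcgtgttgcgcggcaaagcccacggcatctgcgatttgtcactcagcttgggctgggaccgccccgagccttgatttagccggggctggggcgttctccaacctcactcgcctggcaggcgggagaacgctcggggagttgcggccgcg
Meg3, first start: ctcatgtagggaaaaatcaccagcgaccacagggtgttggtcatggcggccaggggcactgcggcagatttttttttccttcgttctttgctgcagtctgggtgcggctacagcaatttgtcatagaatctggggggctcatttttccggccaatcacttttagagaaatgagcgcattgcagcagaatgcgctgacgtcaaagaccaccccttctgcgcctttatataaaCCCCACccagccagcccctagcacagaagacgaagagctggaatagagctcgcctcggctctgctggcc
Meg3, inner start: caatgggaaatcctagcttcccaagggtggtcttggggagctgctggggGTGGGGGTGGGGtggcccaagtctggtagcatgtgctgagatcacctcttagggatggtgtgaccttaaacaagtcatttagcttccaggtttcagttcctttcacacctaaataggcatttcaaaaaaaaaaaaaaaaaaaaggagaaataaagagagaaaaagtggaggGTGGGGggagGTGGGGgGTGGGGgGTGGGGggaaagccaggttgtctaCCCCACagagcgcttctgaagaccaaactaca
Dlk1: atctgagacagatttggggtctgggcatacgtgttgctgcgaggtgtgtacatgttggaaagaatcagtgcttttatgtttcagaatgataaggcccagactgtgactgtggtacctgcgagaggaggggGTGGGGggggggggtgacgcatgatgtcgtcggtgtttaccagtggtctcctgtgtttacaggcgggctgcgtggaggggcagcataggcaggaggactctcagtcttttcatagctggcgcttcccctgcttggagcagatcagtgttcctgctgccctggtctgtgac
Mest: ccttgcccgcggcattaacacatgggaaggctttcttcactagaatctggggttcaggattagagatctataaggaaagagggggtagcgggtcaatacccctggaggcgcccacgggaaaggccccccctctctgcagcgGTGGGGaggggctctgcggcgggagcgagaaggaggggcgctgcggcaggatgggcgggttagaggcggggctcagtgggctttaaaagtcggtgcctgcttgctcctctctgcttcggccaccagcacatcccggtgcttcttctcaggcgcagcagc
*Plagl1* and the first *Meg3* start carry 26 and 13 CG dinucleotides, against a median of 7 and a 90th percentile of 31 over all promoters. Fewer are held by 83.1% and 62.1% of all promoters. The inner *Meg3* start carries 1, *Dlk1* 9 and the inner *Mest* promoter 17. The promoters of *Peg3*, *Ndn*, *Kcnq1ot1* and *Snrpn* hold none of the 3 motifs, which says only that these letters are not in these windows.

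The first comparison asked what active SREBP2 does to the members. With active SREBP2 in the RPE, *Meg3*, *Plagl1* and *Peg3* rose and no member fell at an adjusted *P* under 0.05 (edgeR quasi-likelihood test on all genes, Benjamini-Hochberg). These 3 of 10 members compare with 21% of all 17927 genes tested (12.6% higher and 8.47% lower). None passed the additional limit of the study, an absolute log2FC above 1, which 6.67% of all genes passed. The median log2FC of the members was -0.045, against -0.020 for all genes. *Igf2* (log2FC 0.44 ± 0.10 SE, adjusted *P* = 0.0138) and *H19* (1.12 ± 0.14, 0.000559) both rose. With sex as a term *H19* passed (log2FC 1.11, adjusted *P* = 0.0398) and *Igf2* did not (log2FC 0.27, adjusted *P* = 0.532).

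*Meg3*, the maternally expressed non-coding RNA of the *Dlk1* cluster (GRCm38 chr12:109541001-109571726), was at 116, 132 and 113 CPM in the nSREBP2 libraries and at 78.6, 69.2 and 67.2 CPM in the GFP libraries. The groups did not overlap, and the difference was 1.69-fold (log2FC 0.75 ± 0.09, adjusted *P* = 0.000286). With sex as a term the log2FC was 0.87 ± 0.21 (adjusted *P* = 0.0128). *Plagl1*, a paternally expressed zinc finger factor that halts the cell cycle and acts on other imprinted genes, was at 326, 330 and 317 CPM with nSREBP2 and at 212, 212 and 241 CPM with GFP. All 3 nSREBP2 libraries stood above the GFP libraries, by 1.47-fold (log2FC 0.56 ± 0.07, adjusted *P* = 0.000561). *Peg3*, a paternally expressed zinc finger gene linked to growth and maternal care, was at 522, 527 and 509.6 CPM against 409, 384 and 433 CPM, a 1.28-fold difference (log2FC 0.35 ± 0.07, adjusted *P* = 0.00515) with no overlap. With sex as a term, *Plagl1* had a log2FC of 0.36 ± 0.14 (adjusted *P* = 0.103) and *Peg3* of 0.30 ± 0.12 (adjusted *P* = 0.117), so neither call held there.

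Of the other members, *Ndn* (1.17-fold, adjusted *P* = 0.0681), *Dlk1* (0.82-fold, 0.135) and *Snrpn* (0.74-fold, 0.218) also had groups that did not overlap, but they did not pass the test. *Kcnq1ot1* was at 174, 249 and 189 CPM with nSREBP2 and at 328, 259 and 222 CPM with GFP, overlapping groups (0.76-fold, adjusted *P* = 0.114). In all 6 of 10 members did not overlap between these groups, against 38.2% of all genes. *Cdkn1c* (59.4 ± 4.39 against 62.3 ± 11.1 CPM), *Grb10* (255 ± 8.59 against 260.5 ± 9.77 CPM) and *Mest* (81.6 ± 8.07 against 86.3 ± 17.7 CPM) had overlapping groups and log2FC between -0.073 and -0.027. The fibroblast markers moved in this comparison (9 of 10 higher, summed level 70320 to 84090 CPM against 33890 to 42850 CPM), as did the cell cycle genes (8 of 8 higher, 191 to 254 against 101 to 103 CPM), the macrophage markers (6 of 6 higher), the endothelium markers (6 of 8 lower, 1314 to 1412 against 1758 to 2214 CPM) and the mural cell markers (3 of 6 lower, 1921 to 2234 against 2356 to 3109 CPM). Of 10 RPE markers 2 were higher and 3 lower (374 to 564 against 460 to 573 CPM). Of 10 rod photoreceptor markers 2 were higher (255 to 358 against 38.8 to 312 CPM), as were 2 of 4 neuron markers tested. Of 5 cartilage markers tested 1 was higher and 2 lower, and of 6 melanocyte and Schwann cell markers 1 was lower. The part of all these markers in the changes of the members was not tested.

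Knockdown of *Lrp2* with the first hairpin gave 1 call. *Dlk1* passed the test in *Lrp2* sh1 versus ctrl sh, 1 of 10 against 5.33% of 17801 genes (3.06% higher and 2.28% lower), without reaching the limit on the log2FC that 0.994% of all genes passed, and the median log2FC of the members was -0.091 (all genes -0.0082). *Dlk1*, a paternally expressed Notch-family ligand that holds precursor cells undifferentiated, was at 22.6, 21.1 and 17.2 CPM with *Lrp2* sh1 and at 34.4, 30.0 and 25.4 CPM with ctrl sh. The groups did not overlap (0.68-fold, log2FC -0.56 ± 0.13, adjusted *P* = 0.0418). The call held in 1 of the 6 fits that left out a library (the one without ctrl sh replicate 3), and the log2FC was -0.45 without ctrl sh replicate 1 and -0.67 without ctrl sh replicate 3.

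*Cdkn1c* (log2FC -0.23, adjusted *P* = 0.189), *Grb10* (-0.16, 0.178), *Plagl1* (-0.20, 0.24) and *Mest* (0.26, 0.218) had an unadjusted *P* under 0.05 and did not pass. With *Dlk1*, *Grb10* made 2 of 10 members without overlap between these groups, against 25.2% of all genes. *Peg3*, *Meg3*, *Ndn*, *Kcnq1ot1* and *Snrpn* had overlapping groups with log2FC between -0.099 and -0.019. *Igf2* (0.10 ± 0.10, adjusted *P* = 0.644) and *H19* (0.28 ± 0.13, 0.267) did not pass either. The endothelium markers summed to 1742 to 1864 CPM with *Lrp2* sh1 and 1899 to 1983 CPM with ctrl sh (1 of 8 lower), the mural cell markers to 2078 to 2360 against 2613 to 2797 CPM (2 of 6 lower) and the macrophage markers to 207 to 242 against 261 to 270.4 CPM (1 of 6 lower). Their part in the call of *Dlk1* was not tested.

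**Figure D2:**
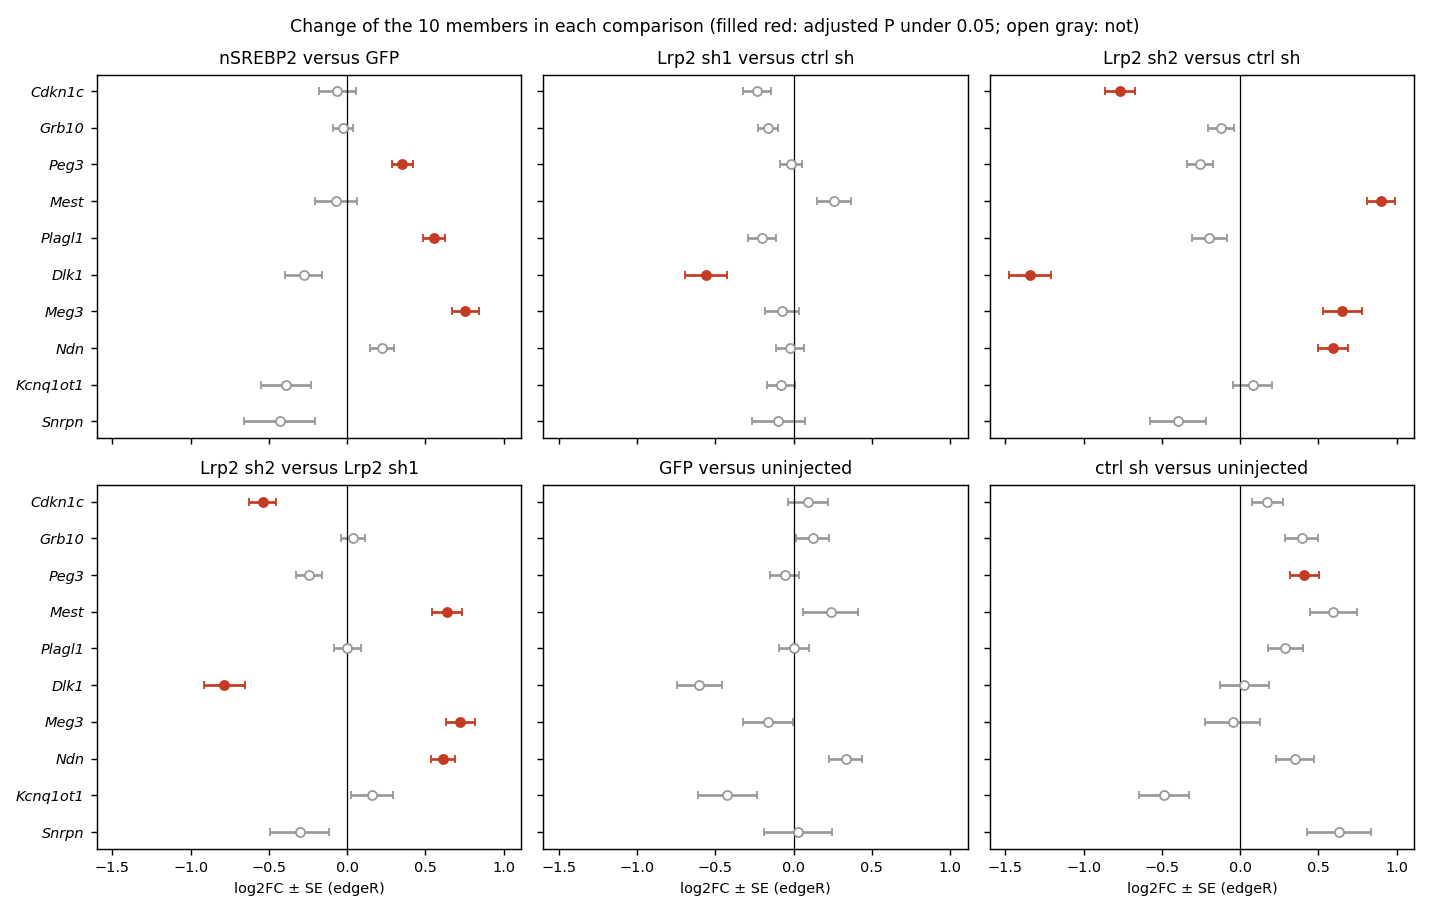
log2FC ± SE (edgeR) of the 10 members in 6 comparisons, filled red where the adjusted *P* was under 0.05 and open gray where not. nSREBP2 has 3 filled points, all to the right, and *Lrp2* sh2 has 5, with *Mest*, *Meg3* and *Ndn* to the right and *Dlk1* and *Cdkn1c* to the left.

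With the second hairpin, *Mest*, *Meg3* and *Ndn* rose and *Dlk1* and *Cdkn1c* fell. These 5 of 10 members in *Lrp2* sh2 versus ctrl sh compare with 18.1% of 18089 genes tested (8.59% higher and 9.48% lower). *Dlk1* also passed the limit on the log2FC, which 4.76% of all genes passed. The median log2FC of the members was -0.16, against 0.0061 for all genes. All 5 calls held in each of the 6 fits that left out a library. Y-linked genes had 3625 and 3630 reads in 2 of the *Lrp2* sh2 libraries and 0 to 4 in the ctrl sh libraries, and the 5 calls also held with sex as a term. *Igf2* was at 5036, 7344 and 8327 CPM with *Lrp2* sh2 and at 556, 657 and 605 CPM with ctrl sh, an 11.5-fold rise (log2FC 3.52 ± 0.18, adjusted *P* = 1.83e-05). *H19* was at 174, 293 and 269.9 CPM against 249, 261 and 249.5 CPM (log2FC -0.037 ± 0.16, adjusted *P* = 0.907). Of this pair, *Igf2* passed the test and *H19* did not. Another annotated gene on the same strand shares 62.8% of the exon bases of *Igf2*.

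*Mest*, a paternally expressed gene of the hydrolase fold family that is linked to fetal growth and fat cell size (chr6:30723547-30748465), was at 192, 204 and 218 CPM with *Lrp2* sh2 and at 111, 97.5 and 122 CPM with ctrl sh. All 3 hairpin libraries lay above every library of the other 5 groups, which reached 153 CPM at most. The rise was 1.87-fold (log2FC 0.90 ± 0.09, adjusted *P* = 0.000244). Exons of *Copg2* on the opposite strand share 23.1% of the exon bases of *Mest*. *Copg2*, chosen here for this overlap, rose less (log2FC 0.26 ± 0.06, adjusted *P* = 0.0177), from 56.2 to 58.1 CPM with ctrl sh to 65.7 to 68.6 CPM with *Lrp2* sh2, and did not pass with sex as a term (adjusted *P* = 0.158).

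*Ndn*, the paternally expressed necdin, which binds E2F factors and restrains the cell cycle (chr7:62346569-62350262), was at 52.3, 52.4 and 61.0 CPM against 35.0, 41.3 and 34.2 CPM with ctrl sh. The groups did not overlap, and the rise was 1.51-fold (log2FC 0.59 ± 0.10, adjusted *P* = 0.00311). *Meg3* was at 134, 124 and 105 CPM against 73.9, 66.7 and 91.7 CPM, a 1.57-fold rise (log2FC 0.65 ± 0.12, adjusted *P* = 0.00671) with no overlap. Its mean level with *Lrp2* sh2 and with nSREBP2 differed by less than the spread between mice, as the plot of levels by group shows.

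*Dlk1*, on the same cluster as *Meg3* (chr12:109452823-109463336), was at 10.5, 12.1 and 12.6 CPM with *Lrp2* sh2, below every library of the other groups, and at 34.4, 30.0 and 25.4 CPM with ctrl sh. The fall was to 0.39-fold (log2FC -1.34 ± 0.13, adjusted *P* = 0.000267). *Cdkn1c*, the maternally expressed cyclin-dependent kinase inhibitor p57 (chr7:143458339-143461050), was at 37.0, 36.1 and 42.0 CPM against 58.0, 71.0 and 68.4 CPM, a fall to 0.59-fold (log2FC -0.77 ± 0.09, adjusted *P* = 0.000765). Its 3 values with *Lrp2* sh2 were likewise below every other library, the lowest of which had 52.4 CPM. An antisense gene shares 30.7% of the exon bases of *Cdkn1c*, and without stated strand use their reads cannot be told apart.

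*Peg3* was at 418, 498 and 490 CPM against 537, 586 and 569 CPM and missed the threshold (0.84-fold, adjusted *P* = 0.0627). Its groups did not overlap, as for 6 of 10 members and 36.8% of all genes. *Grb10*, a maternally expressed adaptor that dampens insulin and IGF receptor signaling, was at 287 ± 27.5 against 314 ± 11.6 CPM (log2FC -0.12, adjusted *P* = 0.333). *Plagl1* was at 234 ± 29.7 against 269.7 ± 32.6 CPM (-0.20, 0.265). *Kcnq1ot1*, the paternally expressed non-coding RNA that silences the *Cdkn1c* cluster on its own chromosome, was at 270.1 ± 52.1 against 257 ± 13.9 CPM (0.080, 0.715). *Snrpn*, which encodes a splicing protein and shares 27.3% of its exon bases with other genes on its strand, was at 6.43 ± 1.15 against 8.54 ± 1.31 CPM (-0.40, 0.163).

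Marker genes also moved with *Lrp2* sh2. Of 10 RPE markers 6 were lower, and their sum was 466 to 823 CPM against 1837 to 3858 CPM with ctrl sh. Of 8 endothelium markers 7 were lower, and their sum was 1246 to 1314 CPM against 1899 to 1983 CPM with ctrl sh. All 5 blood markers were lower (350.1 to 438 against 632 to 804 CPM), 7 of 8 cell cycle genes were higher (162 to 236 against 102 to 118 CPM), and 8 of 10 rod photoreceptor markers were higher (85.6 to 429 against 43.2 to 65.0 CPM). Of 6 mural cell markers 4 were lower and 1 higher (2060 to 2545 against 2613 to 2797 CPM), and of 10 fibroblast markers 4 were higher and 1 lower (41580 to 50110 against 32470 to 45900 CPM). The part of these cells in the changes of the members was not tested.

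**Figure D3:**
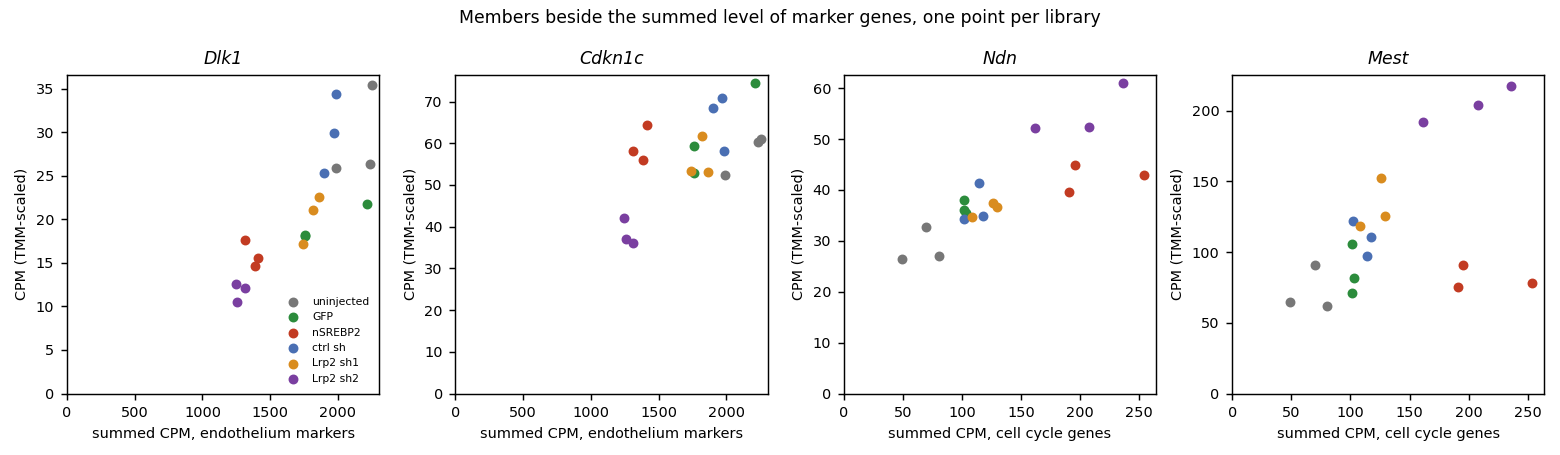
CPM of *Dlk1* and *Cdkn1c* against the summed CPM of 8 endothelium markers, and of *Ndn* and *Mest* against that of 8 cell cycle genes, 1 point per library, colored by group. The *Lrp2* sh2 libraries (1246 to 1314 CPM of endothelium markers) hold the lowest *Dlk1* and *Cdkn1c*, and the nSREBP2 libraries (1314 to 1412 CPM) hold *Dlk1* at 14.6 to 17.6 CPM and *Cdkn1c* at 55.9 to 64.4 CPM.

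The 2 hairpins were also set against each other, as both lowered *Lrp2* to a like level (36.9 and 38.6 CPM on average, adjusted *P* = 0.728). In *Lrp2* sh2 versus *Lrp2* sh1, 5 of 10 members passed, against 22.4% of 17975 genes (10.2% higher and 12.3% lower), and none passed the limit on the log2FC, as 5.13% of all genes did. *Meg3* (1.65-fold, log2FC 0.72 ± 0.09, adjusted *P* = 0.000431), *Mest* (1.56-fold, 0.64 ± 0.09, 0.000987) and *Ndn* (1.53-fold, 0.61 ± 0.08, 0.000467) were higher with the second hairpin. *Dlk1* (0.58-fold, log2FC -0.78 ± 0.13, adjusted *P* = 0.00227) and *Cdkn1c* (0.69-fold, -0.54 ± 0.09, 0.00157) were lower. *Igf2* differed 10.7-fold between the hairpins and *H19* did not pass (log2FC -0.32, adjusted *P* = 0.262). These 5 are the members that passed in *Lrp2* sh2 versus ctrl sh, and both comparisons use the *Lrp2* sh2 libraries. With the second hairpin all 8 endothelium, 7 of 10 RPE and 3 of 6 mural cell markers were lower, and all 8 cell cycle genes, all 6 macrophage, 9 of 10 rod photoreceptor and 1 of 6 mural cell markers were higher. Their part in the differences of the members was not tested.

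Whether nSREBP2 and *Lrp2* sh2 changed the members unequally was tested as the difference of their effects, each against its own control. *Lrp2* itself fell in both, to 0.22-fold with nSREBP2 (adjusted *P* = 0.000233 by edgeR) and to 0.33-fold with *Lrp2* sh2 (0.00109). Its own difference of effects did not pass (adjusted *P* = 0.533). Of the 10 members 5 passed, against 5.63% of 19744 genes (3.23% higher and 2.4% lower). *Dlk1* (difference of log2FC 1.07 ± 0.21, adjusted *P* = 0.00442), *Plagl1* (0.76 ± 0.14, 0.00309), *Cdkn1c* (0.71 ± 0.16, 0.0144) and *Peg3* (0.61 ± 0.11, 0.00244) had the more positive or less negative log2FC with nSREBP2. For *Dlk1* (log2FC -0.28 with nSREBP2 and -1.34 with *Lrp2* sh2) and *Cdkn1c* (-0.063 and -0.77) the larger change was the fall with *Lrp2* sh2. *Mest* (-0.97 ± 0.21, adjusted *P* = 0.0105) had the higher log2FC with *Lrp2* sh2. For *Meg3*, which rose in both, the difference was 0.11 with an SE of 0.20 (adjusted *P* = 0.838). *Igf2* (-3.08 ± 0.22, adjusted *P* = 2.01e-07) and *H19* (1.16 ± 0.30, 0.027) differed in opposite directions. The contrast includes the difference between the GFP and ctrl sh controls. With GFP and with ctrl sh the mean was 19.4 and 29.9 CPM for *Dlk1*, 221 and 269.7 CPM for *Plagl1* and 62.3 and 65.8 CPM for *Cdkn1c*. It was 409 and 564 CPM for *Peg3* and 86.3 and 110 CPM for *Mest*. Sex and vector cannot be told apart within the nSREBP2 part.

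The controls give the background of injection and vector. In GFP versus uninjected no member passed (2.48% of 17837 genes did, 0.662% higher and 1.82% lower, and 1.41% passed the limit on the log2FC as well), with an unadjusted *P* under 0.05 for *Dlk1* and *Ndn*, and DESeq2 called 1. *Igf2* (1.44-fold, unadjusted *P* = 0.00252, adjusted *P* = 0.0682) and *H19* (1.55-fold, 0.0162, 0.156) were higher with GFP and did not pass by edgeR. With sex as a term *Igf2* passed (adjusted *P* = 0.0401) and *H19* did not (0.0985). *Dlk1* was at 18.1, 18.2 and 21.8 CPM with GFP and at 26.3, 35.4 and 25.9 CPM in uninjected mice (0.66-fold, adjusted *P* = 0.0682). *Ndn* was at 35.5, 36.0 and 38.0 CPM with GFP and at 27.0, 32.8 and 26.4 CPM in uninjected mice (1.26-fold, adjusted *P* = 0.14). Neither gene had overlapping groups here, as for 25.6% of all genes. Of 10 RPE markers 7 were lower with GFP, and their sum was 460 to 573 CPM against 2660 to 7848 CPM in uninjected mice. Of 10 fibroblast markers 1 was lower, as was 1 of 6 macrophage markers. Of 9 rod photoreceptor markers tested 2 were higher, as was 1 of 8 cell cycle genes. The part of these markers was not tested.

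In ctrl sh versus uninjected *Peg3* passed, 1 of 10 against 6.49% of 17822 genes (3.13% higher, 3.37% lower, and 2.39% past the limit on the log2FC, which *Peg3* did not reach), at 537, 586 and 569 CPM against 452, 421 and 393 CPM (1.33-fold, log2FC 0.41 ± 0.09, adjusted *P* = 0.0365). The call held in 1 of the 6 fits that left out a library, the one without uninjected replicate 1 (adjusted *P* = 0.0325), and the adjusted *P* reached 0.147 without ctrl sh replicate 2. *Mest* (1.51-fold, adjusted *P* = 0.0503), *Grb10* (1.32-fold, 0.0596), *Snrpn* (1.55-fold, 0.097), *Kcnq1ot1* (0.71-fold, 0.102) and *Ndn* (1.27-fold, 0.115) did not pass. With *Peg3*, these are the 6 of 10 members without overlap between the groups, against 31.8% of all genes. The count of members depended on the fit, with 4 by DESeq2 (8.34% of all genes), 5 in one fit of all libraries (14.5%), 6 with sex as a term (12.4%) and 0 with the replicate block (1.37%). Of 8 fits, the main one included, *Mest* passed in 5 and *Grb10* in 4. One uninjected library had Y-linked reads and no ctrl sh library did. *Igf2* (1.48-fold, adjusted *P* = 0.0285) and *H19* (1.88-fold, 0.0248) rose. The RPE markers were at 1837 to 3858 CPM with ctrl sh and at 2660 to 7848 CPM in the uninjected libraries, and 0 of 10 passed. Of 10 fibroblast markers 2 were higher (32470 to 45900 against 17780 to 29480 CPM). Of 6 mural cell markers 2 were lower (2613 to 2797 against 2860 to 3830 CPM), as were 2 of 6 macrophage markers (261 to 270.4 against 313 to 356 CPM). Of the cell cycle genes, the melanocyte and Schwann cell markers and the neuron markers, 1 each was higher. The part of these markers was not tested. The GFP and ctrl sh comparisons share the uninjected libraries.

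Between mice of one group, no member passed a test of its slope on *Igf2* or on *H19*. The slope is the change in log2 level per unit of log2 CPM of *Igf2*, with group as a factor in a fit of all 18 libraries. By edgeR, 1 of 19743 genes passed for *Igf2* (0.00507%), and that gene was *H19* (slope 1.30 ± 0.17, adjusted *P* = 0.0198). An unadjusted *P* under 0.05 was reached by 3 of 10 members, all with a positive slope, against 7.57% of all genes (3.24% with a positive slope). They were *Grb10* (slope 0.44 ± 0.09, adjusted *P* = 0.218), *Peg3* (0.34 ± 0.10, 0.477) and *Kcnq1ot1* (0.60 ± 0.27, 0.641). For *H19*, no gene of 19743 passed by edgeR (0%), and *Grb10* (0.30 ± 0.06, adjusted *P* = 0.246) and *Peg3* (0.22 ± 0.07, 0.457) had an unadjusted *P* under 0.05, as did 8.42% of all genes (4.19% with a positive slope). Even *Igf2* did not pass on *H19* (slope 0.62 ± 0.09, adjusted *P* = 0.0663). A member that did not pass is therefore not shown to vary apart from the pair. DESeq2 called *Grb10* for both (adjusted *P* = 0.0127 for *Igf2* and 0.00973 for *H19*) and no other member. Of the 8 cell cycle genes, 6 had an unadjusted *P* under 0.05 and a positive slope on *Igf2*, and their part in the slope of *Grb10* was not tested.

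**Figure D4:**
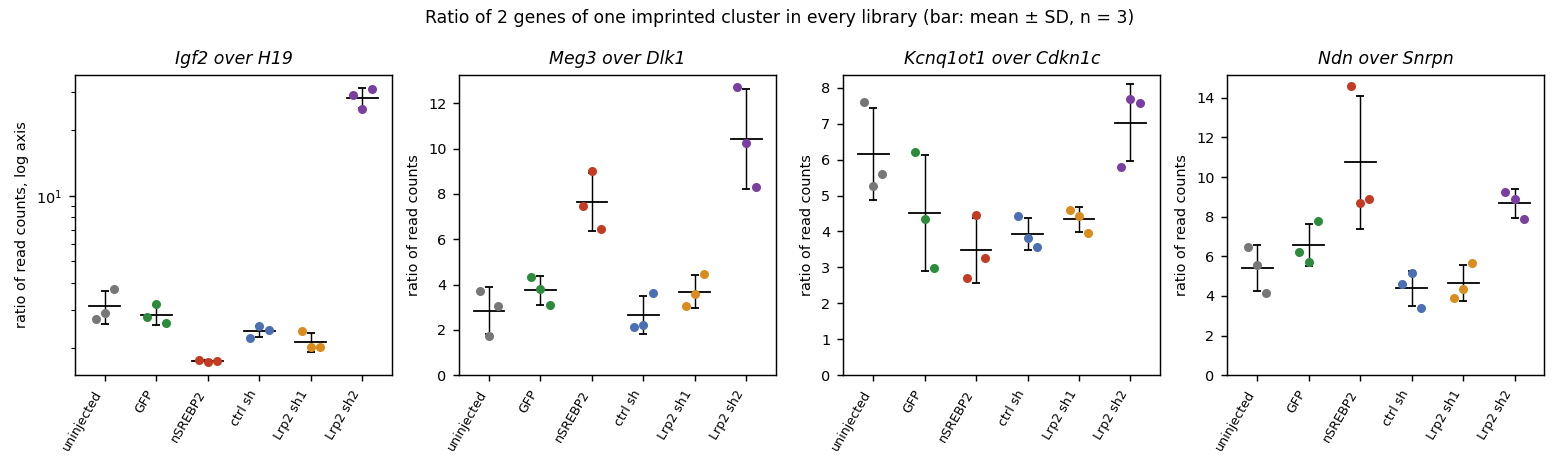
Ratio of read counts of paired genes of 4 imprinted clusters in each of 18 libraries, with bars for the mean ± SD (n = 3). *Igf2* over *H19*, on a log axis, is at 25.1 to 30.9 in *Lrp2* sh2, and *Meg3* over *Dlk1* is higher in nSREBP2 and *Lrp2* sh2 than in any library of the other groups.

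Ratios of read counts within a library show how genes of one cluster moved apart. At the *Dlk1* and *Meg3* cluster on chromosome 12, there were 7.64 ± 1.29 reads of *Meg3* per read of *Dlk1* with nSREBP2 and 10.4 ± 2.20 with *Lrp2* sh2. The uninjected, GFP, ctrl sh and *Lrp2* sh1 libraries had 1.72 to 4.46, so these groups did not overlap with the other pair. At the cluster of *Cdkn1c* and *Kcnq1ot1* on chromosome 7, there were 7.03 ± 1.07 reads of *Kcnq1ot1* per read of *Cdkn1c* with *Lrp2* sh2 and 3.94 ± 0.45 with ctrl sh, but the uninjected libraries reached 7.61. *Igf2* over *H19* was 28.3 ± 2.96 with *Lrp2* sh2, 1.75 ± 0.02 with nSREBP2 and 2.01 to 3.75 in the other libraries. *Ndn* over *Snrpn* was 10.7 ± 3.35 with nSREBP2 and 8.67 ± 0.71 with *Lrp2* sh2, against 3.41 to 7.77 elsewhere. The ratios were not tested on their own.

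Of the 42 other imprinted genes listed, 15 of 34 tested passed with nSREBP2 (8 higher and 7 lower, against 21% of all genes), 4 of 33 with *Lrp2* sh1 (3 higher and 1 lower, against 5.33%) and 11 of 33 with *Lrp2* sh2 (4 higher and 7 lower, against 18.1%). Their median log2FC was 0.057, 0.022 and 0.073. *Slc22a18*, a transporter gene of the *Cdkn1c* cluster, rose with the first hairpin (38.5 to 40.2 CPM against 11.8 to 17.5 CPM, 2.79-fold, adjusted *P* = 0.000543) and fell with the second (3.19 to 5.18 CPM, 0.31-fold, 0.000936). It also rose in ctrl sh versus uninjected (2.285-fold, adjusted *P* = 0.0176). *Kcnq1*, the potassium channel gene that *Kcnq1ot1* overlaps, fell with *Lrp2* sh2 (0.50-fold, adjusted *P* = 0.00178) and with nSREBP2 (0.64-fold, 0.00962). It also fell in GFP versus uninjected (0.59-fold, adjusted *P* = 0.026). *Slc38a4*, an amino acid transporter, rose with nSREBP2 (14.0 to 15.9 against 4.97 to 5.30 CPM, 2.92-fold, adjusted *P* = 5.64e-05). *Nap1l5*, a histone chaperone family gene, fell with nSREBP2 (0.40-fold, adjusted *P* = 0.0325) and with *Lrp2* sh2 (0.42-fold, 0.0269). *Rian*, a non-coding RNA downstream of *Meg3* that was chosen after its values were seen, rose with nSREBP2 (1.67-fold, adjusted *P* = 9.98e-05) and with *Lrp2* sh2 (1.40-fold, 0.00179). With sex as a term, the nSREBP2 calls of *Slc38a4* (adjusted *P* = 0.00612), *Kcnq1* (0.0183) and *Rian* (0.000486) held and that of *Nap1l5* did not (0.114), nor did its call with *Lrp2* sh2 (0.0807).

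Of the 10 non-imprinted paralogs of the members listed, 3 of 10 tested passed with nSREBP2 (21% of all genes), 2 of 9 with *Lrp2* sh1 (5.33%) and 2 of 9 with *Lrp2* sh2 (18.1%). *Cdkn1a*, which encodes p21, a relative of *Cdkn1c*, was at 355 to 433 CPM with *Lrp2* sh1 and 248 to 305 CPM with *Lrp2* sh2, against 36.6 to 122 CPM with ctrl sh (4.91-fold, adjusted *P* = 0.0046, and 3.35-fold, adjusted *P* = 0.00615). It fell with nSREBP2 (0.80-fold, adjusted *P* = 0.039) and rose in GFP versus uninjected (2.02-fold, adjusted *P* = 0.0131). *Dlk2*, the relative of *Dlk1*, rose with *Lrp2* sh1 from 6 to 10 reads to 24 to 40 reads (4.04-fold, adjusted *P* = 0.0105). *Grb7*, a relative of *Grb10*, passed with nSREBP2 (4.86-fold, adjusted *P* = 0.0402) at only 4 to 56 reads in a library. With sex as a term neither nSREBP2 call held (adjusted *P* = 0.312 for *Cdkn1a* and 0.193 for *Grb7*).

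The genes whose levels were most like those of a member over the 18 libraries were found by Pearson correlation of log2(CPM + 1) among 17345 genes with a mean of at least 1 CPM. They describe the pattern over groups, and the libraries share cell makeup and depth. *Dlk1* was most like *Cd300lg* (0.939), *Rnf152* (0.93) and *Gm5468* (0.927). *Cdkn1c* was most like *Akap12* (0.933), *Robo4* (0.885) and *Kcnj8* (0.859), of which *Kcnj8* is in the list of mural cell markers. *Ndn* was most like *Erp29* (0.951), *Cdk4* (0.943) and *Cdk1* (0.924), *Mest* was most like *Tmem132a* (0.939), *Ankrd52* (0.939) and *Pgam1* (0.937), and *Meg3* was most like *Slc9a7* (0.934), *Polq* (0.932) and *Il1r1* (0.909). For *Plagl1* these were *Dcbld2* (0.882), *Cgref1* (0.874) and *Emp3* (0.855), and for *Peg3* they were *9330182L06Rik* (0.89), *Oaf* (0.889) and *Adam9* (0.876). *Grb10* was most like *Ubfd1* (0.845), *Dgcr8* (0.841) and *Nkain2* (0.822), *Kcnq1ot1* most like *Gm37736* (0.893), *Baz2b* (0.888) and *Gm43508* (0.886), and *Snrpn* most like *Frem1* (0.875), *Atp7a* (0.873) and *Lrig2* (0.871). No other member, and neither *Igf2* nor *H19*, was among the 3 genes most like any member. Only the highest positive correlations were kept, so this ranking cannot show whether a member moved with *Igf2* or *H19*.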

How the data were processed

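The authors made RNA-seq libraries of RPE from 18 mice, 3 in each of 6 groups, with ribosomal RNA depletion and a directional kit. They mapped the reads to GRCm38 and used STAR to count them, and what was deposited is a table of raw counts, unnormalized whole numbers for each gene. Which annotation was used, and whether strand was used, is not given in the sources used here, so counts of genes that overlap others are uncertain. Sample titles gave the group and the replicate number. A library held 8921885 to 13696934 counts. Where no read was counted, the limit is 3 counts, which correspond to 0.216 to 0.327 CPM (counting error only). No replicate pair was within sampling noise, with a lowest chi-square of 3.57 for each degree of freedom.

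Low genes were removed with filterByExpr, and edgeR 4.0.16 in R 4.3.3 (TMM, glmQLFit, glmQLFTest) was run on the 2 groups compared. All 18 libraries entered the F test, the difference of effects and the slopes. A gene passed at a Benjamini-Hochberg adjusted *P* under 0.05 over all genes tested. An SE is the log2FC divided by the square root of its F value. The study itself used DESeq2 with an absolute log2FC above 1. The fits were tested on simulated data. Positions and overlaps came from GENCODE M21, which has 52489 of the 52636 gene identifiers when versions are ignored, and promoters from RefSeq.

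Results were recomputed with DESeq2 1.42.0, with its size factors in edgeR, with no filter, with at least 10 counts in every library, with one fit of all libraries, sex as a term (more than 10 CPM of Y-linked genes), the replicate number as a block, the limit on the log2FC, and without each library in turn. Named are all members, *Igf2* and *H19*, the targeted genes, other imprinted genes and paralogs that passed with an absolute log2FC above 1 in a comparison made by the study, and the 3 genes most like each member. Members and lists were chosen with earlier results of these data known.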

Additional observations from a re-analysis of the deposited data

Results flagged for a closer look

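The effects of nSREBP2 (against GFP) and of *Lrp2* sh2 (against ctrl sh) differed for 5 members in a direct test of the difference. It was 1.067 for *Dlk1*, 0.7576 for *Plagl1*, 0.7091 for *Cdkn1c*, 0.6131 for *Peg3* and -0.9714 for *Mest*, all as a difference of log2FC, and each held in all 18 fits that left out a library. *Plagl1* and *Peg3* were higher with nSREBP2 than with GFP in 3 of 3 libraries, *Mest* was higher and *Dlk1* and *Cdkn1c* were lower with *Lrp2* sh2 than with ctrl sh in 3 of 3 libraries. The difference of effects includes that between the GFP and ctrl sh controls, whose mean levels are given above. Sex and vector cannot be told apart within nSREBP2 versus GFP.

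The 2 hairpins against *Lrp2* differed from each other for 5 members although *Lrp2* itself was at a like level. The log2FC of *Lrp2* sh2 versus *Lrp2* sh1 was 0.7228 for *Meg3*, 0.6384 for *Mest* and 0.6138 for *Ndn*, and it was -0.7845 for *Dlk1* and -0.5398 for *Cdkn1c*. These calls held in all 6 fits that left out a library. Each comparison has 3 libraries per group.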

How the results depend on the processing

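The 5 calls of members in *Lrp2* sh2 versus ctrl sh, the 5 between the hairpins and the 5 differences of effects held under every alternative apart from the limit on the log2FC. With an absolute log2FC above 1 required as well, the members called were 0 with nSREBP2, 0 with *Lrp2* sh1, 1 with *Lrp2* sh2, 0 in ctrl sh versus uninjected and 0 between the hairpins. With sex as a term 1 member (11% of all genes) was called with nSREBP2 and *Cdkn1c* (0.0028) and *Grb10* (0.0061) changed sign there near 0. In GFP versus uninjected 1 member was called by DESeq2 (4.42% of all genes), 1 without a filter on low counts (3.28%), 2 in one fit of all libraries (8.72%) and 1 with sex as a term (6.2%). In ctrl sh versus uninjected 4 were called by DESeq2 (8.34% of all genes), 4 without a filter (5.22%), 2 with at least 10 counts in every library (7.07%), 5 in one fit of all libraries (14.5%) and 6 with sex as a term (12.4%). DESeq2 called 1 member for each slope. *Peg3*, not called in *Lrp2* sh2 versus ctrl sh, passed there by DESeq2, without a filter, in one fit of all libraries and with the replicate block (adjusted *P* from 0.0192 to 0.0628 over 8 fits, the main one included). It passed in 3 of these 8 fits between the hairpins (0.0125 to 0.0687), and *Kcnq1ot1* passed with nSREBP2 in 1 of 8 (0.0104 to 0.388) and in 2 of 6 fits without a library. The cause of these shifts was not tested.

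Leaving out each library gave 3 to 4 members with nSREBP2, 0 to 2 with *Lrp2* sh1, 5 with *Lrp2* sh2, 0 to 1 in GFP versus uninjected, 0 to 2 in ctrl sh versus uninjected, 5 to 6 between the hairpins, 9 to 10 in the F test, 5 for the difference of effects and 0 for both slopes. Over the 10 members in each of the 6 comparisons of groups it changed the sign of 16, none of them called. These were, in the comparisons of the study, with nSREBP2 *Mest* (-0.19 to 0.096) and *Cdkn1c* (-0.18 to 0.093), with *Lrp2* sh1 *Peg3* (-0.066 to 0.037), *Ndn* (-0.074 to 0.067), *Meg3* (-0.17 to 0.063), *Snrpn* (-0.18 to 0.033) and *Kcnq1ot1* (-0.17 to 0.0086), and with *Lrp2* sh2 *Kcnq1ot1* (-0.061 to 0.22), besides 4 members in GFP versus uninjected, 2 in ctrl sh versus uninjected and 2 between the hairpins.

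The groups share replicate numbers, but the numbers do not pair the mice: in no comparison did all 3 pairs of same-numbered libraries deviate together with a correlation over 0.1 (lowest -0.454, highest 0.41). With the replicate block, 3 members were called with nSREBP2 (18% of all genes), 1 with *Lrp2* sh1 (2.76%) and 6 with *Lrp2* sh2 (14.4%). It called 0 in GFP versus uninjected (2.13%), 0 in ctrl sh versus uninjected (1.37%, *Peg3* with adjusted *P* = 0.105) and 5 between the hairpins (22.3%). *Snrpn*, at 33 to 119 reads, is the member whose changes depth limits most.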
